A study of Homo sapiens with 16 samples.

Results

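The genes described here encode the machinery that licenses and copies chromosomal DNA. They are 48 genes taken by symbol from the gene table of 60649 rows, and all 48 were found once and had enough reads to be tested. They comprise the 6 subunits of the origin recognition complex (ORC), the loading factors CDC6 and CDT1 with the CDT1 inhibitor GMNN (geminin), the 6 subunits of the MCM2-7 helicase, MCM8 and MCM10, CDC45 with the 4 GINS subunits, the firing kinase CDC7 with DBF4, the sliding clamp PCNA with the 5 subunits of its loader RFC, 9 polymerase and primase subunits, the 3 subunits of RPA, FEN1 and LIG1, and 4 enzymes of nucleotide supply. The cells were ASC52telo, a line of adipose-derived mesenchymal stem cells (MSCs) immortalized with telomerase, so every group comes from 1 line. In MmC-/GDF11- the cells received neither agent, and in MmC-/GDF11+ growth differentiation factor 11 (GDF11), a cytokine of the TGF-beta family, was added at 10 ng/mL over 10 days. In MmC+/GDF11- the cells were exposed for 18 h to 1.5 µg/mL of mitomycin C (MmC), a DNA alkylating agent used to make them senescent, and were collected 10 days later. MmC+/GDF11+ received MmC and then GDF11. Each group held 4 biological replicates numbered 1 to 4, and following the study the cells without MmC are called young and those with it senescent.

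Replication is licensed before S phase, when ORC, CDC6 and CDT1 load MCM2-7 double hexamers onto origins. Geminin then holds CDT1 inactive, and CDC7 with DBF4 phosphorylates the loaded helicase so that CDC45 and GINS can join it and form the active enzyme. Polymerase alpha with primase starts each new strand, RFC loads PCNA, polymerases delta and epsilon extend the strands, RPA covers single strands, and FEN1 and LIG1 join the fragments of the lagging strand. Ribonucleotide reductase (RRM1 with RRM2), TYMS and TK1 provide the deoxynucleotides. Many of these genes are transcribed through E2F factors as cells enter the cycle, and cells that leave the cycle for good, such as senescent cells, are known to hold less of their RNA.

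Promoter sequences of RefSeq (GRCh38.p14, 250 bases before to 50 after the start) were found for 42 of the 48 genes. The E2F words TTTCCCGC, TTTGGCGC and TTTCGCGC were searched on both strands, where words may overlap. At least 1 of them was present for 21 of the 42 genes (50.0%), against 902 of 27305 genes with a promoter in the same table (3.3%). CCAAT, searched on both strands, was present for 25 genes (59.5%, against 39.7% of all), and the words TTTGAA or TTCGAA of the CHR element for 3 (7.1%, against 19.5%), which were MCM6, DBF4 and RRM1. The 100 bases before the start are shown for 4 genes whose later values differ in pattern, with the E2F words in capitals. GINS2 and MCM6 are helicase subunits that fell after MmC, while CDT1 and GMNN are the loading factor and its inhibitor. In GINS2 and CDT1 the word stands on the opposite strand and therefore reads GCGGGAAA here, and in MCM6 a word of each strand overlap. The windows lie at chr16:85688955-85689054 on the minus strand for GINS2, chr2:135876444-135876543 on the minus strand for MCM6, chr16:88803689-88803788 on the plus strand for CDT1 and chr6:24775313-24775412 on the plus strand for GMNN, all upstream of the RefSeq start. They lie outside the exons of GENCODE v44, for CDT1 and MCM6 just before the gene and for GINS2 and GMNN in an intron of its longer transcripts.
GINS2: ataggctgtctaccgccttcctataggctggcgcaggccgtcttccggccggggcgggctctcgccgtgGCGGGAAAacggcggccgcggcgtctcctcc
MCM6: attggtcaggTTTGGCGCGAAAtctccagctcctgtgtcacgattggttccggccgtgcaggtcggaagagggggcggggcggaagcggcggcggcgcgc
CDT1: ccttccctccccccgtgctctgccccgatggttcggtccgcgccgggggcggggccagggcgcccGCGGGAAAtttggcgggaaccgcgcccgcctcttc
GMNN: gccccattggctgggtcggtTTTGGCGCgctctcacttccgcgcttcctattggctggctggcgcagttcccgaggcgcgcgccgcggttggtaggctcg
A match is a run of letters and not a measured binding site.

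Poly(A) RNA was sequenced, and library totals ran from 71275337 to 144204979 counts. Of the cell type markers, the 5 of MSCs (NT5E, THY1, ENG, CD44 and ITGB1) had between 507 and 2720 CPM (counts scaled by TMM to a common library total) in every library, and 5 of other cell types (PTPRC, CD14, CD34, PECAM1 and EPCAM) had between 0 and 19.7. EPCAM was at or near 0. In MmC-/GDF11- those 5 summed to 14.5 to 27.9 CPM and in MmC-/GDF11+ to 15.3 to 21.4. After MmC they summed to 22 to 33.7 CPM without GDF11 and to 21.5 to 31.4 with it. MKI67, a marker of cycling cells, had between 77.5 and 163 CPM in the libraries without MmC and between 13.7 and 49.8 in those with it. CDKN1A, the p53 target that inhibits cyclin-dependent kinases, had between 166 and 375 CPM without MmC and at least 1040 with it. In bulk RNA, fewer cycling cells and less RNA per cell cannot be told apart.

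The 48 genes together took a smaller part of the RNA after MmC, and in replicate 1 of most groups. Their summed level was 2304 ± 560.2 CPM (SD, n = 4) in MmC-/GDF11-, close to the 2343 ± 248.9 of MmC-/GDF11+. It was 1544 ± 306.3 in MmC+/GDF11- and 1544 ± 300.3 when GDF11 followed MmC. In the order of replicates 1 to 4, which is kept for all values by library below, the sums in young cells were 1536, 2505, 2311 and 2862 CPM without GDF11 and 2120, 2421, 2171 and 2660 CPM with it. In senescent cells they were 1092, 1753, 1625 and 1708 CPM without and 1100, 1721, 1735 and 1619 CPM with GDF11. The senescent libraries overlapped with the young ones only through replicate 1 of MmC-/GDF11-. Replicate 1 was the lowest library of its group in each of the 4 groups.

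**Figure D1:**
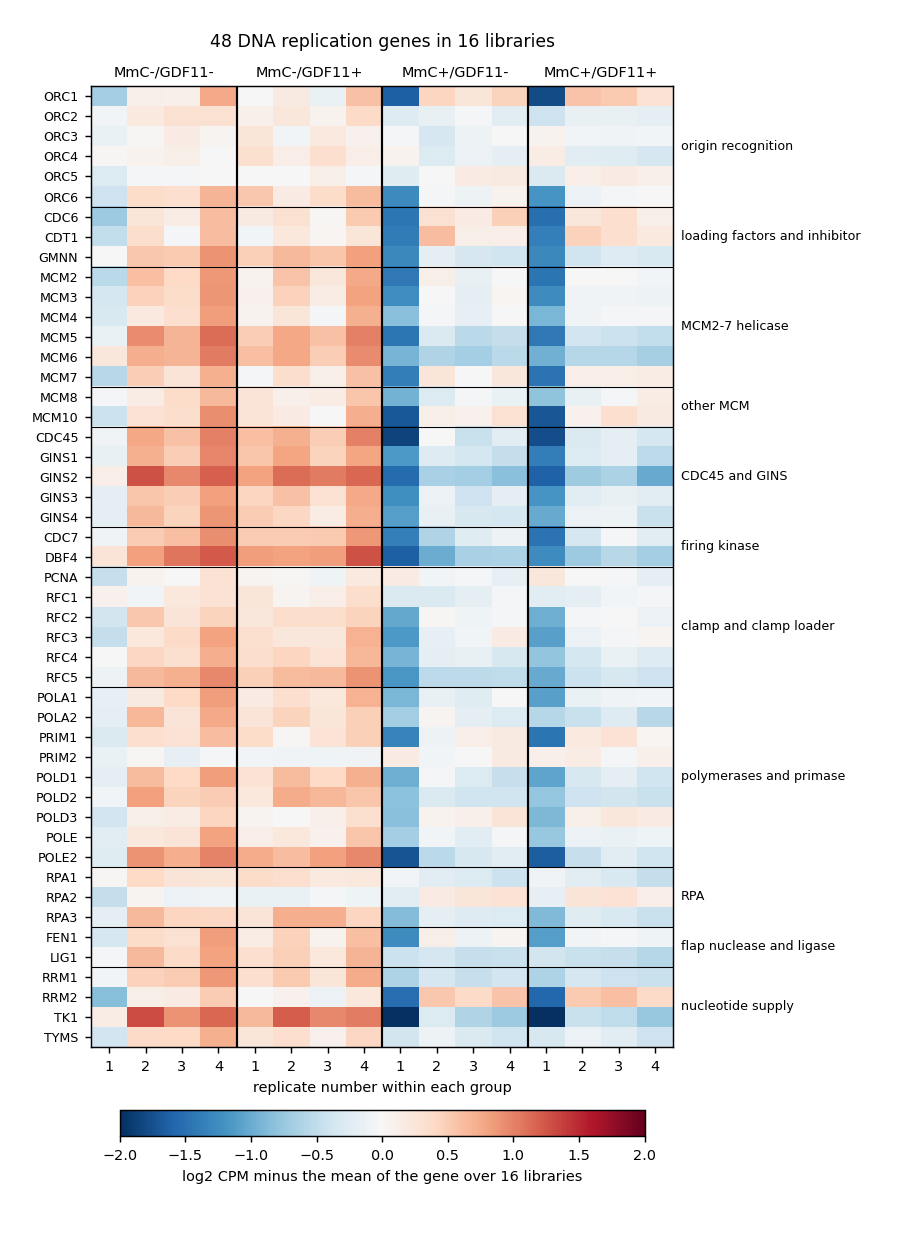
Each row is 1 of the 48 genes and each column 1 of the 16 libraries, with colour giving log2 CPM minus the mean of the gene over all libraries. Most rows are bluer in the 8 libraries with MmC, and replicate 1 is the palest or bluest column of 3 of the groups. It is the lowest library for 45 of the 48 genes in MmC-/GDF11- (32% of all genes), 40 in MmC+/GDF11- (35.2%) and 41 in MmC+/GDF11+ (36.9%). In MmC-/GDF11+ it is the lowest for 16 of the 48 genes, near the share of all genes (29.5%).

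Per length of annotated exons, the genes differed widely in level. In MmC-/GDF11- the mean was 322 ± 74 TPM (counts per length of the gene, scaled to a common total, SD, n = 4) for PCNA and 311 ± 91.7 for TK1, and the lowest were POLA2 at 1.98 ± 0.573 and MCM8 at 3.45 ± 0.882. The spread of PCNA and TK1 overlapped. Within the helicase, whose 6 subunits join in equal number, the TPM levels were 64.2 ± 24.5 for MCM2, 94.2 ± 34.0 for MCM3, 38.4 ± 14.1 for MCM4, 53.1 ± 18.4 for MCM5, 67.8 ± 17.3 for MCM6 and 111 ± 38.7 for MCM7. After MmC these became 39.3 ± 15.5, 58.1 ± 20.8, 25.5 ± 6.72, 20.3 ± 6.35, 25.3 ± 3.64 and 82.3 ± 34.5, so that MCM6, the third highest in TPM before, stood among the lowest 3. The length used joins all annotated exons of a gene, 9852 bases for MCM4 and 3645 for MCM3. The order of genes in TPM therefore depends on the annotation. In CPM, which uses no length, MCM6 had the lowest mean of the 6 both before (72.6) and after MmC (28).

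MmC was compared with no MmC to ask how the copying machinery differs between senescent and young MSCs, first without GDF11. Of the 48 genes 27 fell, by edgeR's quasi-likelihood test with Benjamini-Hochberg adjustment over 19103 genes at 0.05, and 0 rose. Libraries were not paired by replicate number in this test. Among all genes tested 22.4% were lower and 22.9% higher by the same rule. At least 2-fold lower were 11 of the 48, against 5.88% of all genes. The median log2 fold change was -0.62 over the 48 genes and -0.01 over all genes. The libraries of both groups did not overlap for 15 genes, all lower, where 18.2% of all genes were lower without overlap. With GDF11 present, 26 of the 48 fell and 0 rose (23.3% of all genes lower, 23.4% higher), 12 at least 2-fold (6.03% of all), with a median of -0.62. There 33 genes were lower without overlap and 1, PRIM2, higher, against 21.2% and 20.2% of all genes. Replicate 1 was the lowest young library for 45 of the 48 genes without GDF11 (32% of all genes) and for 16 with it (29.5%). Its part in the 15 and 33 genes without overlap was not tested. The 2 comparisons have no library in common, but all 16 libraries share 1 fit. Same-numbered senescent libraries deviated together across genes, with correlations of 0.448 to 0.818. The comparison with GDF11 is thus not an independent repeat.

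**Figure D2:**
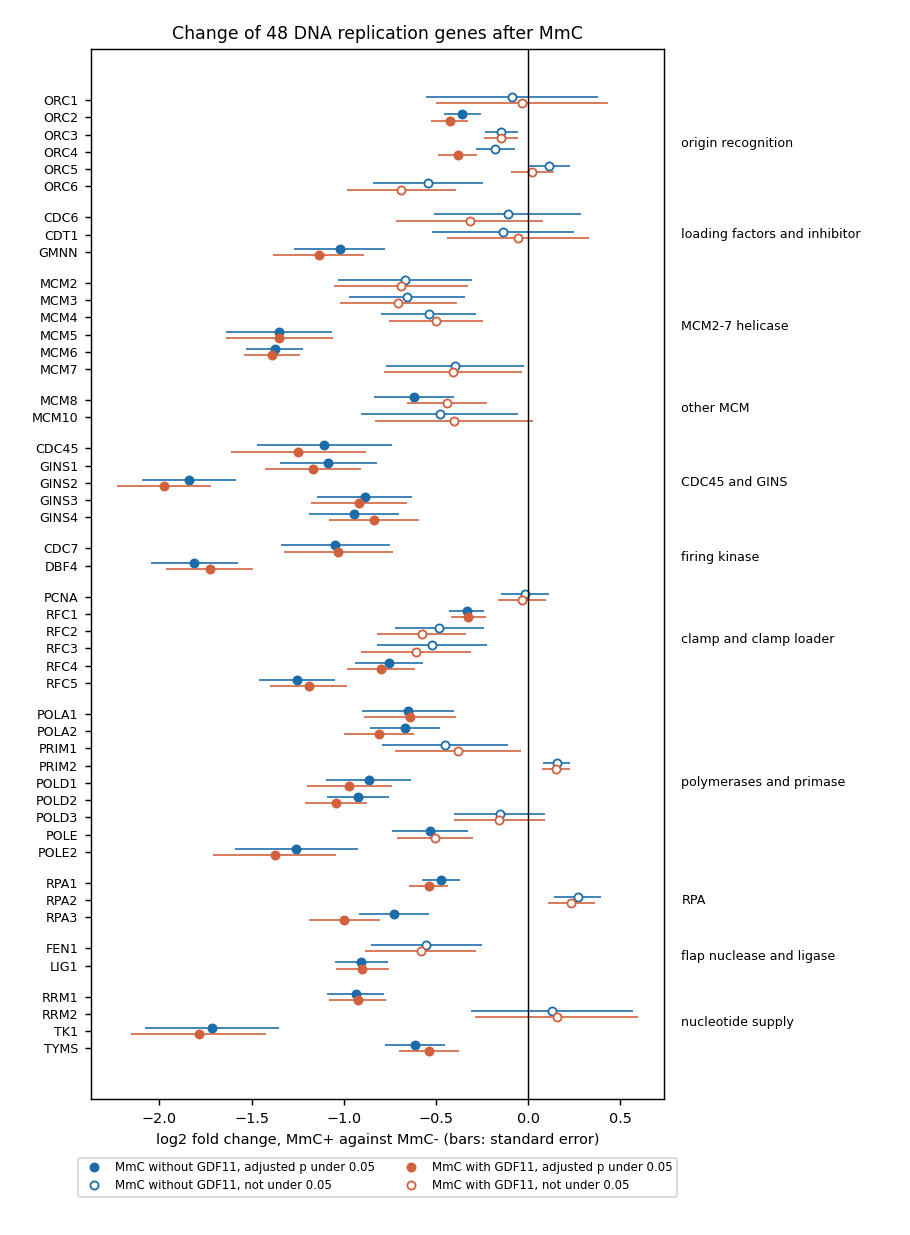
The log2 fold change of MmC+ against MmC- is shown for each of the 48 genes by role, in blue without GDF11 and in orange with it, with bars of 1 standard error and filled points for an adjusted p under 0.05. GINS2, DBF4 and TK1 lie farthest to the left. The bars of ORC1, ORC5, CDC6, CDT1, PCNA, POLD3 and RRM2 reach the line of no change in both comparisons. PRIM2 and RPA2 lie to the right of it by more than 1 standard error, with open points.

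Among the subunits that turn the loaded helicase into an active one, CDC45 and all 4 GINS subunits fell in both comparisons, with log2 fold changes between -1.84 and -0.89 without GDF11 and between -1.97 and -0.84 with it. GINS2, a subunit of the ring that joins MCM2-7, had 11.2, 24.6, 19.9 and 23.4 CPM in MmC-/GDF11- and 3.5, 6.51, 6.36 and 5.73 in MmC+/GDF11-. With GDF11 it had 17.7, 22.1, 20.9 and 22.6 CPM without MmC and 3.31, 6.20, 6.54 and 5.09 with it. Every senescent library lay below every young one, and the fall was 3.58-fold without GDF11 (log2 -1.84, SE 0.26, adjusted p = 3.95e-05) and 3.93-fold with it (log2 -1.97, SE 0.26, adjusted p = 2.08e-05). GINS3 had 5.55, 9.40, 8.93 and 11.2 CPM in MmC-/GDF11- and 2.72, 5.88, 4.77 and 5.59 in MmC+/GDF11-. Its groups overlapped through replicate 1 of the young cells, and the log2 fold change was -0.89 (SE 0.26, adjusted p = 0.0109), against -0.92 (SE 0.26, adjusted p = 0.00874) with GDF11.

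Both parts of the firing kinase fell as well. DBF4, the regulatory subunit whose level limits the kinase, had 14.6, 21.5, 25.7 and 28.7 CPM in young cells without GDF11 and 21.8, 21.3, 21.9 and 29.5 CPM with it. In senescent cells it had 3.93, 6.18, 7.84 and 7.87 CPM without and 5.10, 7.38, 8.37 and 7.64 CPM with GDF11. Every young library stood above every senescent one. Its log2 fold change was -1.81 (SE 0.24, adjusted p = 2.13e-05) without and -1.73 (SE 0.24, adjusted p = 3.11e-05) with GDF11. Of the exonic sequence of DBF4, 26.4% of 31-base words also occur elsewhere in the genome, so some of its reads may have been assigned or dropped by the counting. CDC7, the catalytic subunit, had 7.59, 11.3, 12.1 and 15.2 CPM in MmC-/GDF11- and 3.08, 5.22, 6.75 and 7.37 in MmC+/GDF11-. Its groups stood only a little apart, since replicate 1 of the young cells lay just above the highest senescent library, and the log2 fold change was -1.05 (SE 0.30, adjusted p = 0.00921).

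All 6 subunits of MCM2-7 had negative log2 fold changes. MCM5 and MCM6 fell in both comparisons, while MCM2, MCM3, MCM4 and MCM7 did not pass the test in either. In a fit of the 8 libraries without GDF11 with replicate number as a block, these 4 were called lower too, with adjusted p of 0.000519, 0.000676, 0.00364 and 0.0112. Same-numbered libraries deviated together there, with correlations of 0.113 to 0.368 across genes. With GDF11, where the correlations were 0.0293 to 0.311, the blocked fit called MCM2 (adjusted p = 0.0353) and MCM3 (adjusted p = 0.0213) lower. MCM6 had 52.3, 74.4, 72.1 and 91.7 CPM in young cells without GDF11 and 68.2, 76.3, 62.7 and 86.7 CPM with it. In senescent cells it had 23.6, 29.6, 28.1 and 30.7 CPM without and 23.1, 30.3, 30.3 and 28.4 CPM with GDF11. The groups were far apart and replicate 1 of the senescent cells was only slightly below the others, and the log2 fold change was -1.38 (SE 0.15, adjusted p = 4.20e-06) without and -1.39 (SE 0.15, adjusted p = 3.97e-06) with GDF11. MCM7 had 79.1, 163, 139 and 190 CPM in MmC-/GDF11- and 44.2, 137, 117 and 136 in MmC+/GDF11-. Replicates 2 to 4 of the senescent cells lay within the range of the young cells, and replicate 1 lay far below in both groups, with a log2 fold change of -0.40 (SE 0.37, adjusted p = 0.412). MCM5 had a log2 fold change of -1.35 (SE 0.29, adjusted p = 0.00152), and those of MCM2, MCM3 and MCM4 were -0.67, -0.66 and -0.54 with adjusted p between 0.100 and 0.146. Differences between subunits were not tested.

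Of the other MCM proteins, MCM8, which acts in recombination with MCM9, had 5.44, 6.15, 7.14 and 8.69 CPM in MmC-/GDF11- and 2.87, 4.56, 5.40 and 5.02 in MmC+/GDF11-. It fell without GDF11 (log2 -0.62, SE 0.22, adjusted p = 0.0281) and had -0.44 (adjusted p = 0.108) with it. Another gene covers 33.3% of its exons on the same strand. MCM10, which helps the active helicase, had 6.51, 10.8, 11.2 and 16.8 CPM in MmC-/GDF11- and 2.71, 9.54, 9.34 and 10.9 in MmC+/GDF11-, with a log2 fold change of -0.48 (SE 0.43, adjusted p = 0.384, and 0.0321 with the block).

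Of the loading factors and their inhibitor GMNN passed the test, and CDC6 and CDT1 did not. CDC6, the ATPase that brings MCM2-7 to ORC, had 14.2, 27.8, 26.1 and 36.2 CPM in young cells without GDF11 and 26.8, 29.1, 24 and 34.0 CPM with it. In senescent cells it had 8.66, 29.0, 26.3 and 32.7 CPM without and 8.26, 27.7, 29.8 and 25.6 CPM with GDF11. CDT1 had 18.6, 33.6, 25.7 and 40.4 CPM, then 25.3, 30.3, 27.1 and 30.9, then 9.99, 40.4, 28.6 and 28.8, and last 10.2, 36.2, 33 and 29.9 in the same order of groups. For both genes replicates 2 to 4 of the senescent cells stood at the level of the young cells. The log2 fold changes without GDF11 were -0.11 (SE 0.40, adjusted p = 0.842) for CDC6 and -0.14 (SE 0.38, adjusted p = 0.800) for CDT1. GMNN had 13.3, 19.4, 19.2 and 24.9 CPM in MmC-/GDF11- and 5.45, 11.6, 10.6 and 10.1 in MmC+/GDF11-, without overlap, and fell by 1.02 on the log2 scale (SE 0.25, adjusted p = 0.00323), and by 1.14 (SE 0.25, adjusted p = 0.00149) with GDF11.

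The log2 ratio of CDT1 to GMNN counts in the same library, which does not depend on library scaling, was 0.482, 0.791, 0.420 and 0.697 in MmC-/GDF11- and 0.873, 1.79, 1.42 and 1.51 in MmC+/GDF11-. With GDF11 it was 0.446, 0.543, 0.476 and 0.386 without MmC and 0.897, 1.85, 1.57 and 1.47 with it. All senescent libraries lay above all young ones in each comparison, by 0.80 and 0.98 in the mean. A two-sided exact permutation test gave p = 0.0286 for each, the smallest that 4 against 4 allows, and 0.0762 after adjustment over 8 ratio tests, so neither passed. For GDF11 the differences were -0.14 (p = 0.257, exact permutation test) in young and 0.05 (p = 0.743, exact permutation test) in senescent MSCs.

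In the origin recognition complex only ORC2 fell in both comparisons, with log2 fold changes of -0.36 (SE 0.10, adjusted p = 0.00969) and -0.43 (SE 0.10, adjusted p = 0.00298), and ORC4 fell with GDF11 present (-0.38, SE 0.11, adjusted p = 0.00825). ORC6, the subunit least tightly bound to the complex, had 7.89, 13.6, 13.2 and 16.8 CPM in MmC-/GDF11- and 4.35, 10.3, 9.76 and 11.0 in MmC+/GDF11-, and a log2 fold change of -0.54 (SE 0.30, adjusted p = 0.149, and 0.00344 with the block). ORC5 had 13.9, 16.5, 16.5 and 16.7 CPM and 14.1, 16.9, 18.8 and 19 CPM, and a log2 fold change of 0.11 (SE 0.12, adjusted p = 0.445). The range over the 6 subunits was thus -0.54 to 0.11. ORC1, the ATPase subunit, is shown here because of its values in replicate 1. It had 5.89, 10.2, 10.1 and 16.0 CPM in MmC-/GDF11- and 3.04, 12.7, 11.2 and 12.8 in MmC+/GDF11-, with a log2 fold change of -0.09 (SE 0.47, adjusted p = 0.897).

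Among the clamp and its loader RFC1, RFC4 and RFC5 fell in both comparisons, and PCNA, RFC2 and RFC3 did not pass the test. With the block RFC2 and RFC3 were called lower without GDF11, with adjusted p of 0.00187 and 0.00249. PCNA, the clamp that holds polymerases on DNA and is also a p53 target, had 85.4, 123, 118 and 143 CPM in young cells without GDF11 and 122, 120, 111 and 134 CPM with it. In senescent cells it had 132, 113, 114 and 105 CPM without and 137, 118, 116 and 104 CPM with GDF11. All 4 groups overlapped, and the log2 fold changes were -0.02 (SE 0.13, adjusted p = 0.923) and -0.03 (SE 0.13, adjusted p = 0.866). Replicate 1 was the highest senescent library for this gene. RFC5 had 12.0, 20.1, 20.9 and 24.9 CPM in MmC-/GDF11- and 5.75, 8.97, 8.95 and 8.99 in MmC+/GDF11-. It had no overlap between these groups and fell by 1.25 on the log2 scale (SE 0.21, adjusted p = 0.000164).

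Of the 9 polymerase and primase subunits 6 fell without GDF11 and 5 with it. POLE2, the second subunit of polymerase epsilon, had the lowest fold change, with 4.44, 9.78, 8.73 and 10.5 CPM in MmC-/GDF11- and 1.59, 3.61, 4.22 and 4.57 in MmC+/GDF11- (log2 -1.26, SE 0.33, adjusted p = 0.00630). Replicate 1 of the young cells lay within the senescent range. POLD2 and POLD1 of polymerase delta fell by 0.92 and 0.86 on the log2 scale, while their partner POLD3 had -0.15 (adjusted p = 0.640). PRIM2, the large primase subunit, had 37.3, 41.5, 36.7 and 39.8 CPM in MmC-/GDF11- and 45.7, 39.4, 41.4 and 46.3 in MmC+/GDF11-, with a log2 fold change of 0.16 (SE 0.07, adjusted p = 0.0987). For PRIM2 54.8% of the 31-base words of its exons occur elsewhere in the genome, so its level is uncertain. Its partner PRIM1 had a log2 fold change of -0.45 (SE 0.34, adjusted p = 0.305, and 0.0226 with the block).

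Of the 3 RPA subunits, which form 1 trimer, RPA1 and RPA3 fell and RPA2 did not pass the test, and differences between them were not tested. RPA3 had 18.5, 33.2, 28.5 and 28.3 CPM in MmC-/GDF11- and 11.6, 18.7, 17.7 and 17.5 in MmC+/GDF11-, and fell by 0.73 on the log2 scale (SE 0.19, adjusted p = 0.00556). RPA2 had 41.8, 60.3, 53.5 and 55.3 CPM and 50.0, 65.3, 68.3 and 70.6 CPM, and a log2 fold change of 0.27 (SE 0.13, adjusted p = 0.0957, and 0.0164 with the block, where it was higher). Of the senescent libraries of RPA2 only replicate 1 lay within the young range. RPA1 fell by 0.47 (SE 0.10, adjusted p = 0.00173). On the lagging strand, LIG1, the ligase, had 26.3, 42.0, 35.2 and 47.0 CPM in MmC-/GDF11- and 19.9, 21.2, 19.5 and 19.8 in MmC+/GDF11-, and fell by 0.90 (SE 0.14, adjusted p = 0.000108). FEN1, the flap nuclease, had 26.5, 43.4, 41.6 and 59.7 CPM and 14.1, 36.4, 31.4 and 34.9 CPM, and a log2 fold change of -0.55 (SE 0.30, adjusted p = 0.147, and 0.00406 with the block). The senescent values of LIG1 were close together with replicate 1 among them, and those of FEN1 were not.

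In nucleotide supply RRM1, TK1 and TYMS fell and RRM2 did not pass the test. TK1, the thymidine kinase of the salvage route, had 86.7, 193, 146 and 174 CPM in MmC-/GDF11- and 19, 64.6, 51.7 and 47.3 in MmC+/GDF11-. The groups did not overlap, and TK1 fell 3.28-fold (log2 -1.72, SE 0.36, adjusted p = 0.00147), and 3.45-fold with GDF11. TYMS, thymidylate synthase, had 73.4, 125, 126 and 156 CPM and 74.2, 89.2, 77.8 and 72.6 CPM and fell by 0.61 (SE 0.16, adjusted p = 0.00621), although replicate 1 of the young cells lay at the senescent level. ENOSF1 on the opposite strand covers 47.9% of the TYMS exons, and whether strand was used in the counting is not given in the sources used here. RRM2, the S-phase small subunit of ribonucleotide reductase, had 61.8, 121, 124 and 157 CPM in young cells without GDF11 and 110, 118, 102 and 129 CPM with it. In senescent cells it had 38.4, 161, 144 and 164 CPM without and 37.4, 160, 169 and 144 CPM with GDF11. Replicates 2 to 4 of the senescent cells were at or above most young libraries and replicate 1 was far below all of them, so the log2 fold change of 0.13 had an SE of 0.44 (adjusted p = 0.833).

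RRM2B, the p53-inducible small subunit that serves DNA repair and is not one of the 48 genes, had 44.8, 33, 41.9 and 40 CPM in MmC-/GDF11- and 154, 114, 135 and 108 in MmC+/GDF11-. It rose without overlap by 1.68 on the log2 scale (SE 0.14, adjusted p = 3.66e-07), and by 1.57 (SE 0.14, adjusted p = 6.59e-07) with GDF11. The log2 ratio of RRM2 to RRM2B was 0.462, 1.88, 1.56 and 1.98 in MmC-/GDF11- and -2.01, 0.5, 0.095 and 0.610 in MmC+/GDF11-, and 1.15, 1.52, 1.28 and 1.70 against -2.06, 0.351, 0.369 and 0.518 with GDF11. The mean differences of -1.67 (p = 0.0857, exact permutation test, adjusted 0.171) and -1.62 (p = 0.0286, exact permutation test, adjusted 0.0762) did not pass after adjustment. Replicate 1 carried the lowest ratio in each of the 4 groups.

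A list of 39 other replication genes, all tested, had 19 lower and 1 higher without GDF11, the 1 being RRM2B, and 20 lower and 2 higher (RRM2B and TOP1) with it. Of all genes tested 22.4% were lower and 22.9% higher without GDF11, and 23.3% and 23.4% with it. The lowest called were TOP2A, the topoisomerase that separates sister chromatids, at -1.85 (SE 0.32, adjusted p = 0.000252), UHRF1, which guides maintenance methylation, at -1.58 (SE 0.32, adjusted p = 0.000925), RNASEH2A at -1.51, CHTF18, a subunit of an alternative clamp loader, at -1.16, and DTYMK, thymidylate kinase, at -1.14. RNASEH2A was counted at no more than 0.492 CPM in any library, and another gene on the same strand covers 53.3% of its exons.

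**Figure D3:**
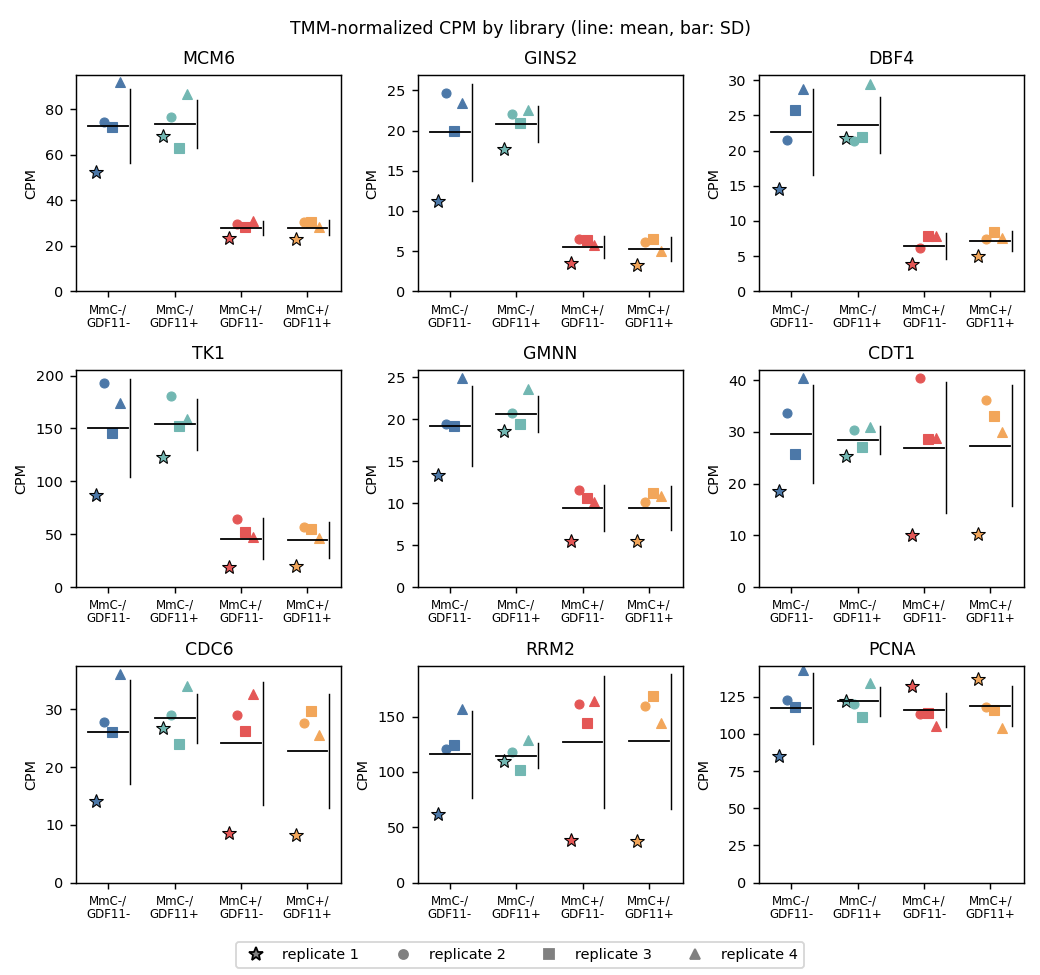
TMM-normalized CPM of 9 of the genes is plotted for each library, with 1 marker shape per replicate number, a line at the mean and a bar of 1 SD. MCM6, GINS2, DBF4, TK1 and GMNN separate young from senescent libraries, while for CDT1, CDC6 and RRM2 replicates 2 to 4 overlap across groups and the star of replicate 1 lies below them in both senescent groups.

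GDF11 was compared with no GDF11 in each MmC state to ask whether the cytokine changes these genes. None of the 48 was called in young or in senescent MSCs by edgeR, and 0 had an unadjusted p under 0.05 in either. Of all 19103 genes 0% were called, lower or higher, while 226 and 96 had an unadjusted p under 0.05. By DESeq2 and limma-voom 0 of the 48 were called as well. The log2 fold changes of the 48 genes lay between -0.06 and 0.19 (median 0.04) in young and between -0.20 and 0.15 (median 0.00) in senescent MSCs. Without overlap between groups only ORC4 was higher in young MSCs with GDF11, where 0.513% of all genes were lower and 0.377% higher in this way, and none in senescent MSCs (0.293% and 0.209% of all). The difference between the 2 GDF11 effects was called for 0 of the 48 and 0 of all genes (172 at an unadjusted p under 0.05). These values do not show that the levels were equal, since the spread was wide for many of the genes. In young MSCs, the 48 genes were a median of 0.48 (log2) higher with GDF11 between the same-numbered libraries of replicate 1, against 0 over all genes. All 48 were higher in that pair, while in replicates 2, 3 and 4 their medians were -0.03, -0.09 and -0.09. CDC6 rests on such values, with 14.2 CPM without and 26.8 CPM with GDF11 in replicate 1.

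Replicate 1 was compared with replicates 2 to 4 within groups. It was singled out with earlier results of these data known, so its calls are a description, and what same-numbered libraries had in common other than the number is not given in the sources used here. The study names batch effects among its limits without tying them to a replicate number. Over all 16 libraries with 1 mean per group, 40 of the 48 genes were lower in replicate 1 and 0 higher (15.5% of all genes lower, 15.1% higher), with a median of -0.67. MCM7 was lower by 1.11 on the log2 scale (SE 0.16, adjusted p = 0.000134), MCM2 by 1.10 (SE 0.15, adjusted p = 5.08e-05), ORC1 by 1.27 (SE 0.28, adjusted p = 0.00329) and RRM2 by 1.22 (SE 0.26, adjusted p = 0.00362). The 8 not called were ORC3, ORC4, PCNA, RFC1, PRIM2, RPA1, LIG1 and TYMS. CDKN1A had 330 CPM in replicate 1 of MmC-/GDF11- against 181 to 211 in the others, and 375 against 166 to 207 in MmC-/GDF11+. After MmC it had 2030 CPM in replicate 1 against 1080 to 1500 without GDF11, and 2010 against 1040 to 1440 with it. Replicate 1 was thus the highest library for CDKN1A in every group. MKI67 in replicate 1 had 16.4 CPM against 37.4 to 47.9 in MmC+/GDF11- and 13.7 against 40.9 to 49.8 in MmC+/GDF11+. In young cells it had 77.5 CPM in replicate 1 against 84.2 to 163 without GDF11, and 115 against 87.4 to 149 with it, where replicate 1 lay within the others. Their part in the difference was not tested.

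Young and senescent libraries were also taken apart. Each arm holds 2 libraries of replicate 1, which the fit counts as independent of each other. Same-numbered senescent libraries deviated together, with correlations of 0.448 to 0.818 across genes. The fit over all 16 libraries in the paragraph above also counts the replicate 1 libraries as independent. Its single term covers MmC-/GDF11+ replicate 1 too, where the median of the 48 genes was only -0.127 (log2) against the others of that group. The SE and adjusted p of replicate 1 given above, here and below may thus understate the spread between replicate numbers. Among MmC+ libraries 37 of the 48 genes were lower in replicate 1 and 2 higher, ORC4 by 0.34 and RPA1 by 0.26 (16.8% of all genes lower, 16.9% higher), 18 of them at least 2-fold lower (6.65% of all), with a median of -0.83. Among MmC- libraries 15 were lower and 0 higher (6.02% lower, 7.24% higher), with a median of -0.45. An unadjusted p under 0.05 was found for 38 of the 48, all lower, and for 5278 of all 19103 genes, 2749 of them lower. The 15 calls rested on MmC-/GDF11- replicate 1: without that library 0 were called (5 at an unadjusted p under 0.05), and without MmC-/GDF11+ replicate 1 36 were. The difference between both arms, a test added after the data were seen, was called for 12 genes, 11 more negative in MmC+ (5.34% of all genes) and 1 less so (4.58%). The 11 were ORC1 at -1.52, ORC6 at -0.87, CDC6 at -1.20, CDT1 at -1.19, MCM7 at -0.88, MCM10 at -1.40, CDC45 at -1.08, PRIM1 at -1.23, POLD3 at -0.67, RRM2 at -1.497 and TK1 at -0.79. PCNA was the exception at 0.54. Leaving out a replicate 1 library of young cells gave 19 calls (MmC-/GDF11-) or 3 (MmC-/GDF11+), leaving out one of senescent cells gave 3 without GDF11 or 2 with it, and leaving out replicate 4 of MmC-/GDF11- gave 22. Shares of all genes are not given for the fits with a library left out, so their counts alone do not set the 48 genes apart.

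**Figure D4:**
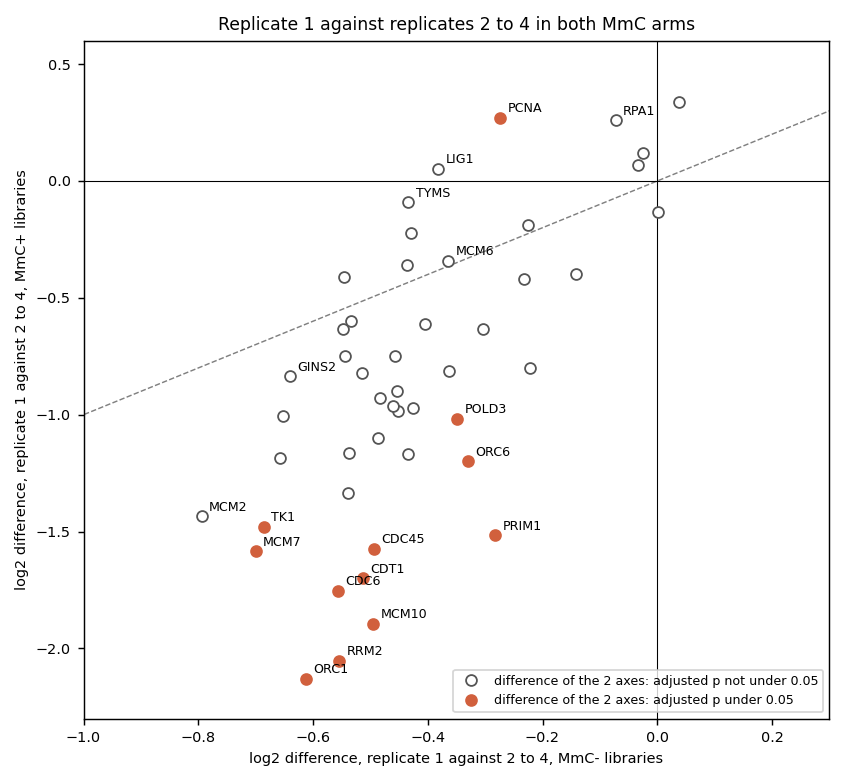
Each point is 1 of the 48 genes, with the log2 difference of replicate 1 against replicates 2 to 4 in MmC- libraries on the horizontal axis and in MmC+ libraries on the vertical axis, whose scales differ. The dashed line marks equal differences, and filled points are the 12 genes whose 2 differences were called different, 11 below the line and PCNA above it.

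In CDC6, for example, replicate 1 was lower by 0.56 (SE 0.19, adjusted p = 0.0611) in the young and by 1.75 (SE 0.20, adjusted p = 8.43e-06) in the senescent libraries, and in RRM2 by 0.55 (SE 0.18, adjusted p = 0.0479) and by 2.05 (SE 0.19, adjusted p = 1.17e-06). MCM6 was near the same in both, lower by 0.36 and by 0.34. LIG1 had -0.38 and 0.05 and TYMS -0.43 and -0.09, so these 2 genes were not lower in replicate 1 of the senescent cells by any amount beyond their SE of 0.13 and 0.15. Between same-numbered libraries without GDF11, the median log2 difference of MmC over the 48 genes was -0.82, -0.47, -0.49 and -0.83, so replicates 1 and 4 were close to each other. Over all genes the medians lay between -0.015 and 0.006. With GDF11 the median over the 48 genes was -1.33, -0.49, -0.29 and -0.75, and replicate 1 was the lowest, while the medians over all genes lay between -0.02 and -0.001.

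Without replicate 1 in every group, which left 3 against 3 libraries and 19338 genes, 37 of the 48 were lower and 1 higher after MmC without GDF11 (25.6% and 26.2% of all genes), including all 27 that were lower with 16 libraries. With GDF11 32 were lower and 2 higher (26.2% and 26.4%), of which 25 of the lower were called with 16 libraries. MCM2 (-0.64, SE 0.14, adjusted p = 0.00134), MCM3 (-0.62, adjusted p = 0.00397), RFC2 (-0.45, adjusted p = 0.000650), ORC6 (-0.49, adjusted p = 0.00508) and FEN1 (-0.50, adjusted p = 0.0105) passed the test without GDF11 in this way, and RPA2 rose by 0.27 (adjusted p = 0.0125). CDC6 (-0.04, SE 0.14, adjusted p = 0.857), CDT1 (-0.03, SE 0.16, adjusted p = 0.893) and ORC1 (0.02, SE 0.19, adjusted p = 0.946) still did not, with smaller standard errors than before. RRM2 had 0.22 (adjusted p = 0.130) without and rose by 0.44 (adjusted p = 0.00599) with GDF11. With replicate number as a block and all 4 replicates, 37 of the 48 were lower and 1 higher after MmC without GDF11, where 24.5% of 18054 genes were lower and 25.3% higher.

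The genes with an E2F word in the promoter had a median log2 fold change after MmC without GDF11 of -0.66 (n = 21), and those without one of -0.48 (n = 21). For replicate 1 in MmC+ libraries the medians were -0.93 and -0.75. CDT1 and GINS2, whose promoters above both hold GCGGGAAA, had log2 fold changes of -0.14 and -1.84 after MmC. For CCAAT the medians after MmC without GDF11 were -0.54 with (n = 25) and -0.67 without the word (n = 17). For the CHR words they were -1.38 with (n = 3) and -0.55 without (n = 39), and for replicate 1 in MmC+ libraries -0.34 and -0.93. These medians are a description of the genes and were not tested.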

How the data were processed

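The authors aligned paired reads from poly(A) directional libraries to hg38 with HISAT2 2.2.1 and deposited raw counts per gene of GENCODE V38 from featureCounts 2.0.1, in 1 table for 16 samples, without normalization. The strand setting, the counting of pairs and the handling of reads with several alignments are not given in the sources used here, and the study names no differential test. The 48 members and all lists were chosen with earlier results of these data known. Groups and replicate numbers came from the labels.

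Here genes were kept by filterByExpr (minimum count 10, minimum total 15), scaled by TMM and fitted in R 4.3.3 with edgeR 4.0.16 (robust quasi-likelihood, all 16 libraries, 1 mean per group, Benjamini-Hochberg over 19103 genes at 0.05). CPM values are TMM-scaled. TPM was computed from the deposited counts and the joined length of all exons of a gene in GENCODE v44. Ratios were tested by exact permutation over libraries with 0.5 added to each count. Steps were tested on simulated data. Values in every library are given, per role, for the members with the lowest and highest log2 fold change after MmC without GDF11 and for CDC6, CDT1, GMNN, PCNA, RRM2 and TYMS, and of the other replication genes the lowest called and RRM2B. ORC1 and the examples of replicate 1 were chosen after their values were seen. 1 marker of another cell type is not reported here. Gene positions, overlaps and 31-base words came from GENCODE v44 on hg38.

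Same-numbered libraries deviated together across genes with correlations of 0.113 to 0.368 (MmC without GDF11) and 0.448 to 0.818 (GDF11, senescent MSCs), so the numbers were taken to pair them. The correlations were 0.0293 to 0.311 for MmC with GDF11 and 0.0982 to 0.504 for GDF11 in young MSCs, which were not taken as paired. This division rests on the lowest pair of each comparison, and apart from GDF11 in senescent MSCs the ranges overlap widely. The main fit did not use the pairing. With replicate number as a block, 37 of the 48 genes were lower and 1 higher after MmC without GDF11 (24.5% and 25.3% of all genes). The main fit gave 27 and 0 (22.4% and 22.9%). Alternatives were RLE and upper-quartile scaling, other count filters, only the compared libraries, a replicate block, limma-voom (limma 3.58.1), DESeq2 1.42.0, and each library left out.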

Additional observations from a re-analysis of the deposited data

Results flagged for a closer look

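Each of the 48 genes was checked in each group of 4 for a library far from the other 3, which flagged 23 of 192 checks. Of these 21 lay in replicate 1. A rate of 1 in 20 would give 9.6, but genes in the same library do not vary independently, so the 2 numbers do not measure chance. The rate over all genes was not computed. Replicate 1 of MmC+/GDF11+ was the lowest library of its group for 36.9% of all genes. In MmC+/GDF11+ replicate 1 was far below the rest for ORC5 (13.7 CPM), ORC6 (4.61), MCM2 (21.3), MCM3 (28.3), MCM4 (41.4), MCM5 (22.4), MCM7 (41.7), CDC45 (2.54), GINS3 (2.82), RFC2 (15.1), POLA1 (8.03), POLD3 (13.1), POLE (18.3) and FEN1 (15.6), and far above it for ORC3 (39.8). In MmC+/GDF11- it was far below for ORC1 (3.04 CPM), RFC2 (14.7), RFC5 (5.75), RPA3 (11.6) and RRM2 (38.4), and in MmC-/GDF11- for ORC5 (13.9). MmC-/GDF11+ replicate 4 was far above its group for CDC7 (14.5 CPM) and DBF4 (29.5), the 2 parts of the firing kinase. High values there were not particular to these genes, since that library was the highest of its group for 39 of the 48. Replicate 4 of MmC-/GDF11- was the highest for 37. Shares of all genes for the highest library were not computed. For MCM7 in MmC+/GDF11+ the other 3 libraries lay between 127 and 128 CPM.

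The log2 difference of replicate 1 from replicates 2 to 4 differed between the MmC+ and the MmC- libraries for 12 genes by edgeR's test of the difference, a test added after the data were seen. It was more negative in MmC+ by -1.516 for ORC1, -0.868 for ORC6, -1.196 for CDC6, -1.187 for CDT1, -0.883 for MCM7, -1.399 for MCM10, -1.08 for CDC45, -1.234 for PRIM1, -0.667 for POLD3, -1.497 for RRM2 and -0.794 for TK1, and more positive by 0.544 for PCNA. Each rests on 2 libraries of replicate 1 in each arm, which the test counts as independent of each other.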

How the results depend on the processing

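Under RLE and upper-quartile scaling, both count filters, limma-voom, DESeq2, only the compared libraries and the replicate block, between 24 and 38 of the 48 genes were called after MmC without GDF11 and between 25 and 33 with it, and 0 for GDF11 or the interaction. With only the compared libraries, 25 were lower without GDF11 (19.1% of all genes lower, 20.5% higher) and 29 with it (22.6% and 23.4%). The block without GDF11 called 24.5% of all genes lower and 25.3% higher. The replicate block, fitted to the compared libraries, gave 38 and 33 calls for MmC, against 27 and 26, and 0 for GDF11, although the numbers were taken to pair only 2 of these comparisons. With GDF11, where they were not, MCM2, MCM3, RFC2, RFC3, POLE and FEN1 were then also lower and RPA2 higher, with 25.8% of all genes lower and 26.2% higher. Terms for replicate 1 in each MmC arm, added after the data were seen, gave 35 and 35. With each library left out in turn the counts were 23 to 30 and 25 to 26 for MmC, 0 for GDF11 and the interaction, 34 to 41 for replicate 1, 0 to 36 for it in MmC- libraries, 31 to 38 in MmC+ libraries and 2 to 22 for the difference between arms. Of the calls for MmC, 23 without and 25 with GDF11 held in every such fit, and those that did not were CDC45, MCM8, POLA1 and POLE without, and POLA1 with GDF11. For replicate 1 in MmC- libraries (15 genes) 34 were called with no filter and 27 with DESeq2, and for the difference between arms (12 genes) 19 with no filter. Except for the block and the fits of only the compared libraries, shares of all genes are not given for these settings. Those counts alone therefore do not set the 48 genes apart from the rest. The causes were not tested.

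Paired by replicate number as a block, the ratio differences of 0.803, 0.983 and -1.617 (CDT1 to GMNN without and with GDF11, RRM2 to RRM2B with GDF11) had p = 0.125 by an exact permutation test, the smallest that 4 pairs allow. With each library left out, the CDT1 to GMNN difference was 0.672 to 0.979 without and 0.849 to 1.166 with GDF11, and -0.194 to -0.07 and -0.131 to 0.228 for GDF11. The RRM2 to RRM2B difference was -2.004 to -1.066 and -1.858 to -0.999 for MmC, and -0.392 to 0.112 and -0.607 to 0.613 for GDF11. The 4 libraries of a group limit the precision.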
